A study of Mus musculus with 4 samples.

Results

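Cplx2, Gfra2, Cecr2, Chst3, Bst1 and Arpp21 are 6 genes, of 32285 measured, that were listed because they led the B-lineage cells of these libraries and are not themselves parts of the pre-B receptor. They were selected on their levels in cells with at least 3 unique molecular identifiers (UMIs, each standing for 1 captured transcript) of Cd79a and Vpreb1 together, with the Mll3-deleted library set against the Mll3/4-deleted one. The rule also used the share of those cells that held each gene. Levels and shares in those cells are therefore given as a description, with no test.

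The study profiled mouse bone marrow cells sorted for CD45.2, Sca1 and Kit and against lineage markers. This population, LSK, contains the blood stem cells and the first progenitors that descend from them. All cells were taken 10 weeks after transplantation, and there was 1 library for each genotype label: control, Mll3 deleted, Mll4 deleted and Mll3/4 deleted. Mll3 and Mll4 are histone methyltransferases encoded by Kmt2c and Kmt2d. The driver of the deletions, the number and age of the mice, and the cells that the hosts kept are not given in the sources used here. Libraries are called by their labels, because the targeted genes did not follow them in full. In the gated cells Kmt2d stood at 15.3 CPM (UMIs of the gene for each 1e6 UMIs of the cell set) in the control (8.75 to 24.9), 19.0 in the library labelled Mll3, 12.1 in that labelled Mll4 (8.76 to 16.2) and 25.5 in that labelled Mll3/4. It was thus not lower in the library labelled Mll3/4, and the library labelled Mll4 overlapped the control. Kmt2c stood at 37.3, 14.8, 41.1 and 42.2 CPM in the same order, lowest in the library labelled Mll3. With 1 library per label there is no measure of the spread between mice, and every interval below is a 95% interval of counting error alone.

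B-cell precursors pass from committed progenitors to pro-B cells, which rearrange their heavy-chain genes, and then to pre-B cells, which test the new chain in a pre-B receptor made with the surrogate light chain. Vpreb1 encodes a part of that surrogate light chain and Cd79a a signalling chain of the receptor. The 6 genes described here have other roles. Cplx2 encodes a complexin, a regulator of the SNARE proteins that fuse secretory vesicles with the cell membrane. Gfra2 encodes the membrane-anchored co-receptor that presents neurturin to the receptor tyrosine kinase RET. Cecr2 encodes a bromodomain protein that works with ISWI chromatin remodellers. Chst3 encodes a sulfotransferase that adds sulfate to chondroitin. Bst1 encodes CD157, a membrane-anchored ectoenzyme that consumes NAD and is also a marker of early B-lineage cells. Arpp21 encodes a phosphoprotein with an RNA-binding R3H domain, and the miRNA gene Mir128-2 lies inside it on the same strand.

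The 6 genes lie on 6 chromosomes. In GENCODE release 21 on GRCm38, Cplx2 (ENSMUSG00000025867) spans chr13:54371349-54383917 on the plus strand. Gfra2 (ENSMUSG00000022103) spans chr14:70890120-70979838 on the plus strand, and Cecr2 (ENSMUSG00000071226) chr6:120666369-120771190 on the plus strand. Chst3 (ENSMUSG00000057337) spans chr10:60181532-60219260 on the minus strand. Bst1 (ENSMUSG00000029082) spans chr5:43818885-43843986 on the plus strand, and its first part overlaps the oppositely transcribed Fbxl5. Arpp21 (ENSMUSG00000032503) spans chr9:112065091-112235938 on the minus strand and overlaps 2 long noncoding RNA genes of the other strand. Start-site windows of 300 bases (250 before the start site and 50 from it) were found for Cplx2, Chst3 and Arpp21 in the RefSeq promoter table on GRCm38.p6. They are shown so that the start sites of genes that were lower together can be read side by side. Gfra2, Cecr2 and Bst1 are named only.

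The 4 windows are written 5′ to 3′ on the strand of the gene, with capitals marking matches on either strand to 6 motifs: TCCCNNGGG (EBF-type), CAGGTG and CAGCTG (E boxes), GAGGAAGT (PU.1-type), TGTGGT (RUNX-type) and GTAAACA (FOXO-type). The first is from Cplx2 (chr13:54302306-54302605, plus strand), and lies upstream of the GENCODE gene start given above. The bases from its start site were not found in the GENCODE transcript of Cplx2, whereas those of the other 10 windows were found in transcripts of their genes. Whether transcription starts there in these cells was not tested. The second is from Chst3 (chr10:60219211-60219510, minus strand). The others are from Arpp21, namely the most upstream of its 9 windows (chr9:112233673-112233972, minus strand) and the one with the most matches (chr9:112217302-112217601, minus strand), picked after the matches were counted.
Cplx2: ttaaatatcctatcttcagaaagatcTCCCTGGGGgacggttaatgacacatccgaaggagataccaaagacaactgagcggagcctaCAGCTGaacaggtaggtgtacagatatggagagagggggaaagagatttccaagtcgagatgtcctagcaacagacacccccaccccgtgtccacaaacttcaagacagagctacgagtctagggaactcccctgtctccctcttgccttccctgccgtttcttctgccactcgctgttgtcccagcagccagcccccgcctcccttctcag
Chst3: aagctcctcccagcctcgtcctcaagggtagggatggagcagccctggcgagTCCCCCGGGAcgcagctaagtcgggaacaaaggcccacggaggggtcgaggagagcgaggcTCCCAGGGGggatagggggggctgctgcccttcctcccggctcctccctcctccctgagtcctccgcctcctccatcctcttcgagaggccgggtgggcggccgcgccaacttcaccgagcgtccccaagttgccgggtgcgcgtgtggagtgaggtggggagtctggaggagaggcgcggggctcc
Arpp21, upstream window: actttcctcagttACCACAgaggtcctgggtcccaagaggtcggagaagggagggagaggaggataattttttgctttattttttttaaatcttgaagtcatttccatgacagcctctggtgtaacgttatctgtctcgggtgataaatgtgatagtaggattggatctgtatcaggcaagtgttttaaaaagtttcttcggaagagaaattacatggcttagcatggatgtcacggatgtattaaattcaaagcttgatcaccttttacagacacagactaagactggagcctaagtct
Arpp21, window with most matches: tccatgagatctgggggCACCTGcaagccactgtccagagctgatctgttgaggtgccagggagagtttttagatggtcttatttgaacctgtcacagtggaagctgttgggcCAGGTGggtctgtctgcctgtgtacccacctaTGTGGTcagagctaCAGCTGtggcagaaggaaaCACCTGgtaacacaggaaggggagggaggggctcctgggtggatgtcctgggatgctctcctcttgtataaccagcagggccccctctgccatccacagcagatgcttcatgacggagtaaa
The Cplx2 window held TCCCNNGGG at -224 and CAGCTG at -162 from the start site. Chst3 held TCCCNNGGG at -198, -197 and -137, of which the first 2 overlap on opposite strands. The Arpp21 windows held no TCCCNNGGG. Its upstream window held TGTGGT at -237, and the second printed window held CAGGTG at -233, -137 and -72, CAGCTG at -91 and TGTGGT at -105. GAGGAAGT and GTAAACA were in none of the 11 windows of the 3 genes. Among 32851 windows of this length the motifs were found in 6.56% (TCCCNNGGG), 20.2% (CAGGTG), 16.3% (CAGCTG), 3.20% (GAGGAAGT), 16.8% (TGTGGT) and 3.65% (GTAAACA). A match is a run of letters, and binding of a factor was not measured here.

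The gate of 3 or more Cd79a and Vpreb1 UMIs took very different shares of the 4 libraries. It held 48 of 6851 kept cells in the control (0.701%), 207 of 5803 in the library labelled Mll3 (3.57%), 127 of 4609 in that labelled Mll4 (2.76%) and 4542 of 4568 in that labelled Mll3/4 (99.4%). Median depth in the gated cells was 20150, 23373, 25265 and 8806 UMIs. Any 2 libraries shared between 7 and 12 cell barcodes. Part of the gate was not B-progenitor-like by its transcripts: Igkc and Jchain, which mark mature B and plasma cells, made up 21.9%, 8.68%, 24.9% and 0.0712% of all UMIs in the gated cells of the 4 libraries in the same order. Gated cells were therefore also described after leaving out those with 1% or more of their UMIs in these 2 genes, a division chosen after the values were seen. This left 22, 178, 21 and 4538 low-Ig cells in the control and the libraries labelled Mll3, Mll4 and Mll3/4.

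The low-Ig cells carried markers of the B lineage beyond the gate genes. Vpreb1 and Cd79a are the gate genes, so their presence here and their part of each sum follow from the gate. All 8 B-lineage progenitor markers (Ebf1, Pax5, Vpreb1, Igll1, Vpreb3, Cd79a, Cd79b and Rag1) were at 20 CPM or more in each library's low-Ig cells, with a summed level of 6002 CPM in the control, 6298 in the library labelled Mll3, 3041 in that labelled Mll4 and 12599 in that labelled Mll3/4. Markers of other cells were not absent everywhere. The 8 granulocyte-monocyte markers summed to 132, 487, 9757 and 12.5 CPM in the same order, so the 21 low-Ig cells of the library labelled Mll4 carried granule transcripts. The 10 mature B and plasma markers summed to between 578 and 1770 CPM, highest in the library labelled Mll3/4. Mzb1 made up 1665 CPM of that sum and was at most 597 CPM in the others. Cd74, H2-Aa, Sdc1 and Jchain were instead lowest in the library labelled Mll3/4, Cr2 was highest, and Igkc, Ms4a1 and Xbp1 were neither. Fcer2a was at 0.0845 CPM there and at 0 in the others. Those sets held at most 4249773 UMIs, against 47328424, so Fcer2a does not set the libraries apart. The mast and basophil list reached 241 CPM in the library labelled Mll4 and at most 8.12 CPM in the others, and the T and innate lymphoid, erythroid and megakaryocyte lists stayed at or under 97.2 CPM in every library. The 8 dendritic markers summed to 921, 893, 1141 and 1247 CPM in the same order, with Siglech at 0 in each. Tcf4 made up 826 CPM of the sum in the library labelled Mll3/4 and was at most 223 CPM in the others. Irf8 (5.07 CPM), Bst2 (71.9), Cst3 (180) and Flt3 (23.6) were instead lowest in the library labelled Mll3/4. H2-Ab1 and Ccr9 were neither highest nor lowest there. The 8 stem cell markers summed to 191, 146, 143 and 379 CPM. Transcripts of the sort markers also differed between libraries inside the gate. Ly6a, which encodes Sca1, was at 81.7 CPM in low-Ig cells of the library labelled Mll3 and 259 CPM in those labelled Mll3/4. Kit RNA in low-Ig cells was 23.1 CPM in the library labelled Mll3, against 228 CPM in the ungated cells of that library and 246 CPM in the low-Ig cells of that labelled Mll3/4. The median count of the CD117 antibody, which binds KIT, was 74.5 and 491 in the low-Ig cells of those 2 libraries. Their part in the differences below was not tested.

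The 6 genes were all lower in the gated cells of the library labelled Mll3/4 than in those labelled Mll3. Cplx2 was 26.8-fold lower, Bst1 11.5-fold, Arpp21 8.79-fold, Chst3 4.83-fold, Gfra2 3.799-fold and Cecr2 2.86-fold. Thus 6 of 6 were at least 2-fold lower and 0 were at least 2-fold higher. Among the 6244 genes with at least 20 CPM in either library, 8.9% were at least 2-fold lower and 14.6% at least 2-fold higher. The median log2 ratio of the 6 genes was -2.70, beside 0.07 over all tested genes. The genes were chosen on this contrast, so the count is not read against that background. In the low-Ig cells the 6 genes were again at least 2-fold lower, where 12.6% of tested genes were, and their median log2 ratio was -2.94.

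**Figure D1:**
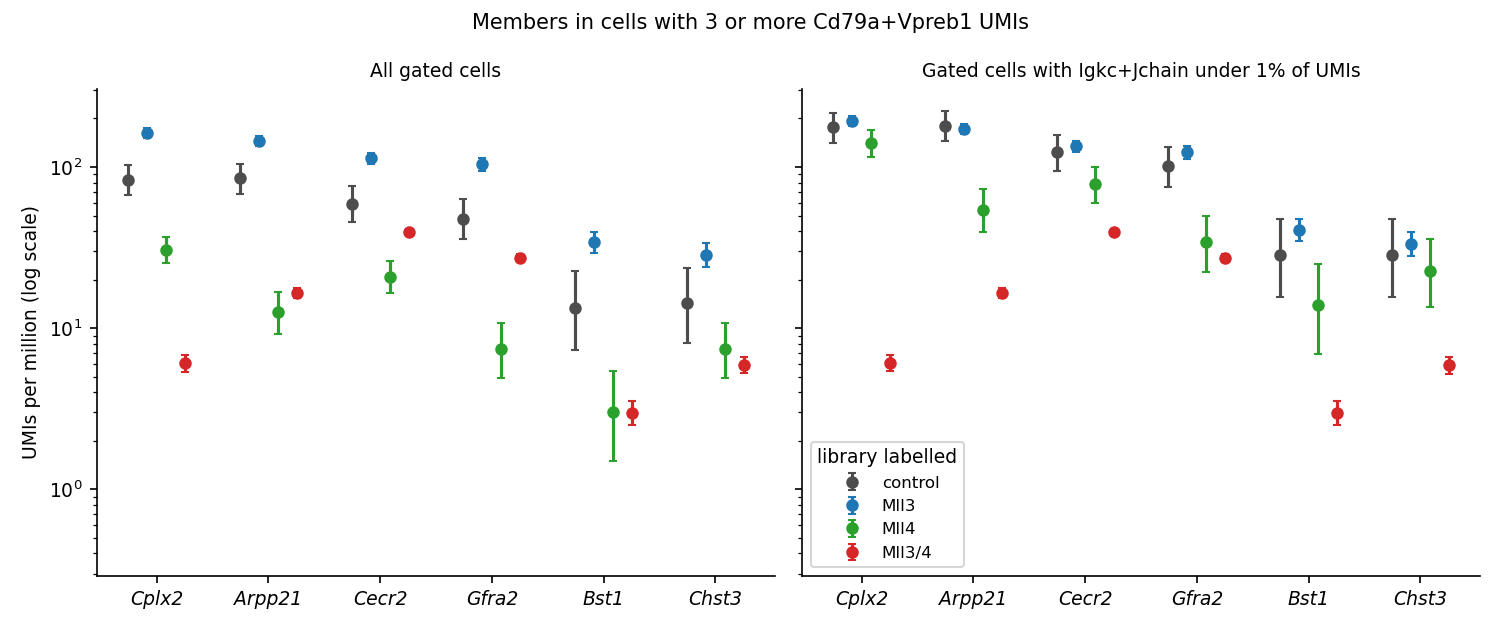
CPM (log axis) of the 6 genes in gated cells, left for all gated cells and right for low-Ig cells, with 1 point per library and 95% Poisson intervals. On the right the control and the library labelled Mll3 overlap for each gene, and the library labelled Mll3/4 is the lowest.

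The low-Ig cells held nearly all transcripts of these genes inside the gate. Those of the library labelled Mll3 held 822 of 822 Cplx2 UMIs, 523 of 524 of Gfra2, 570 of 571 of Cecr2, 142 of 144 of Chst3, 173 of 173 of Bst1 and 735 of 735 of Arpp21. In the control they held all UMIs of Cplx2, Gfra2, Bst1 and Arpp21, 61 of 62 of Cecr2 and 14 of 15 of Chst3. Those of the library labelled Mll4 held 111 of 112 Cplx2 UMIs and 43 of 46 of Arpp21, but 62 of 76 of Cecr2 and 18 of 27 of Chst3. A level over all gated cells thus also depended on how many Igkc-rich cells the gate held, and the levels by library are given in low-Ig cells.

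Cplx2, the complexin gene, was the gene with the widest gap between libraries. In low-Ig cells it was counted at 177 CPM in the control (141 to 218), 193 CPM in the library labelled Mll3 (180 to 207), 140.1 CPM in that labelled Mll4 (115 to 169) and 6.06 CPM in that labelled Mll3/4 (5.38 to 6.81). The first 3 libraries were close to each other, with overlapping intervals for the control and each of the other two, and the library labelled Mll3/4 stood far below them. The low-Ig log2 ratio of Mll3/4 over Mll3 was -4.99 (-5.19 to -4.80), and over the control -4.87 (-5.21 to -4.50). At 6.05 CPM (5.37 to 6.80) the gated cells of the library labelled Mll3/4 held about as much Cplx2 as ungated cells of that labelled Mll3, at 5.66 CPM (5.17 to 6.19), so the 2 levels could not be told apart by counting error. Of the complexin family and SNARE list, 8 of 16 genes were at 20 CPM or more in either library. Cplx2 was the 1 member of that list at least 2-fold lower, and Vamp2, a vesicle SNARE, the 1 at least 2-fold higher (15.4 to 32.0 CPM, log2 ratio 1.04, 0.72 to 1.40). Stxbp3 and Stxbp2, which bind syntaxins, had log2 ratios of 0.62 and -0.52. Cplx1, Cplx3 and Cplx4 had 0 UMIs in the gated cells of both libraries, and so did the neuronal partner Snap25 in that labelled Mll3.

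Gfra2, the neurturin co-receptor, stood at 2 levels. In low-Ig cells it stood at 101 CPM in the control (75.3 to 134), 123 in the library labelled Mll3 (113 to 134), 34.1 in that labelled Mll4 (22.5 to 49.6) and 27.4 in that labelled Mll3/4 (25.9 to 28.9). The control and the library labelled Mll3 overlapped, and so did the libraries labelled Mll4 and Mll3/4, with a gap between the pairs. The level of the library labelled Mll4 rests on 27 UMIs in 21 cells, of which 8 had 30 or more gate UMIs. The part of the granule transcripts of those cells in this level was not tested. The log2 ratio of Mll3/4 over Mll3 in low-Ig cells was -2.17 (-2.32 to -2.02), and that of Mll3/4 over Mll4 was -0.34 (-0.86 to 0.29). Its relative Gfra1, the co-receptor for GDNF, went the other way in the same cells. In all gated cells Gfra1 was counted at 31.7 CPM in the library labelled Mll3 and 107 CPM in that labelled Mll3/4, a log2 ratio of 1.75 (1.52 to 1.99), and 1.499 in low-Ig cells. These were the 2 genes, of 11 in the list of GDNF-family receptors and ligands, with 20 CPM or more. Ret, the signalling receptor that both co-receptors serve, had 0 UMIs in the gated cells of all 4 libraries. A count of 0 (up to 3 UMIs) allows up to 0.0633 CPM in the library labelled Mll3/4 and 0.594 CPM in that labelled Mll3. Nrtn, the ligand of Gfra2, was at 1.39 and 0.443 CPM in the gated cells of the libraries labelled Mll3 and Mll3/4.

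Cecr2, the bromodomain partner of ISWI remodellers, had the smallest gap of the 6. It stood in low-Ig cells at 124 CPM in the control (94.7 to 159), 134 in the library labelled Mll3 (123 to 146), 78.3 in that labelled Mll4 (60.01 to 100.3) and 39.6 in that labelled Mll3/4 (37.8 to 41.4). The library labelled Mll3/4 lay below the intervals of the other libraries, and the control overlapped both of the single-deletion labels. The low-Ig log2 ratio of Mll3/4 over Mll3 was -1.76 (-1.90 to -1.62). Its partners did not share the size of this difference. Of 12 tested genes in the Cecr2 and ISWI list, Cecr2 was the 1 at least 2-fold lower and Baz2b, another bromodomain subunit, the 1 at least 2-fold higher (57.0 to 135 CPM in all gated cells, log2 ratio 1.25). Smarca5, the ISWI motor itself, was at 352 CPM in the library labelled Mll3 and 345 CPM in that labelled Mll3/4, a log2 ratio of -0.03 (-0.10 to 0.04). Smarca1, the other ISWI motor, had 0 UMIs in the gated cells of the library labelled Mll3 and 526 UMIs (11.1 CPM) in those labelled Mll3/4, under the 20 CPM needed to count as tested. Baz1a and Rsf1, further ISWI subunits, had ratios of -0.62 and 0.63, and the list median was -0.18.

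Chst3, the chondroitin sulfotransferase, was at a low level in each library. In low-Ig cells it had 14 UMIs in the control (28.4 CPM, 15.5 to 47.7), 142 in the library labelled Mll3 (33.4 CPM, 28.1 to 39.4), 18 in that labelled Mll4 (22.7 CPM, 13.5 to 35.9) and 279 in that labelled Mll3/4 (5.89 CPM, 5.22 to 6.63). The first 3 libraries overlapped and the library labelled Mll3/4 did not. The low-Ig log2 ratio of Mll3/4 over Mll3 was -2.51 (-2.80 to -2.20). Of 19 genes for sulfation and chondroitin synthesis, 6 were tested over all gated cells, of which 2 were at least 2-fold lower (Chst1 and Chst3) and 1 at least 2-fold higher (Csgalnact1, an enzyme that starts chondroitin chains, 11.3 to 25.4 CPM). The difference of Chst1, a keratan sulfotransferase, came with the Igkc-rich cells: it was at 32.8 CPM in all gated cells of the library labelled Mll3 and at 0 UMIs in its low-Ig cells. Cd44, a glycoprotein that can carry chondroitin, had a log2 ratio of 0.10 (-0.13 to 0.35).

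Bst1, the CD157 gene, had few transcripts in the gate of the library labelled Mll3/4. Its low-Ig cells gave 14 UMIs in the control (28.4 CPM, 15.5 to 47.7), 173 in the library labelled Mll3 (40.7 CPM, 34.9 to 47.2), 11 in that labelled Mll4 (13.9 CPM, 6.93 to 24.8) and 141 in that labelled Mll3/4 (2.98 CPM, 2.51 to 3.51). The control overlapped both single-deletion labels, and the library labelled Mll3/4 lay below the interval of every other one. The low-Ig log2 ratio of Mll3/4 over Mll3 was -3.77 (-4.10 to -3.44). Of the 11 genes for NAD-consuming ectoenzymes and NAD synthesis, 3 were tested, and Bst1 alone was past 2-fold. Nampt and Nadk, which make NAD and its phosphate, had log2 ratios of -0.73 and -0.59. Cd38, the related ectoenzyme, stood at 4.55 CPM in the gated cells of the library labelled Mll3 and 6.47 in that labelled Mll3/4, a log2 ratio of 0.48 (-0.10 to 1.19).

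Arpp21 stood in low-Ig cells at 181 CPM in the control (145 to 222), 173 in the library labelled Mll3 (161 to 186), 54.3 in that labelled Mll4 (39.3 to 73.1) and 16.6 in that labelled Mll3/4 (15.4 to 17.8). The levels thus formed 3 steps, the control and the library labelled Mll3 together on top, then that labelled Mll4, then that labelled Mll3/4. The step of the library labelled Mll4 rests on 43 UMIs in 21 cells, of which 8 had 30 or more gate UMIs. The part of the granule transcripts of those cells in this level was not tested. The low-Ig log2 ratio of Mll3/4 over Mll3 was -3.38 (-3.53 to -3.24). Of the 8 genes in a list of R3H-domain genes and a gene of similar name without that domain (Arpp19), 7 were tested, with Arpp21 the 1 at least 2-fold lower. R3hdm2 was at least 2-fold higher over all gated cells (30.7 to 63.2 CPM, log2 ratio 1.04) but not in low-Ig cells (0.89). Arpp19, a phosphatase inhibitor named for the same kind of substrate, was at 124 and 176 CPM (0.51), and R3hdm4 at 43.3 and 39.7 CPM (-0.13). Mature miR-128 was not measured by these 3′ counts.

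The same comparison was made against the other libraries, which share the Mll3/4 cells with the first. Against the 22 low-Ig cells of the control, 6 of 6 genes were at least 2-fold lower in the library labelled Mll3/4, where 10.6% of 6462 tested genes were, and their median log2 ratio was -2.81 beside -0.08 over all tested genes. Against the 21 low-Ig cells of the library labelled Mll4, 3 of the 5 tested genes were at least 2-fold lower (Cplx2, Chst3 and Arpp21), beside 12.2% of 6611 genes. Cecr2 fell just short at a log2 ratio of -0.996 (-1.35 to -0.60), and Bst1 was under 20 CPM in both. Over all gated cells, with 106 Igkc-rich cells of 127 in that library, the median ratio to Mll4 over all tested genes was 0.93, and the ratios were 1.86 for Gfra2, 0.91 for Cecr2, 0.38 for Arpp21, -0.08 for Bst1, -0.35 for Chst3 and -2.35 for Cplx2. Gfra2, Cecr2 and Arpp21 thus changed sign, and of the 3 genes at least 2-fold lower in low-Ig cells Cplx2 remained so. Over all gated cells the ratio to the control was -0.82 for Gfra2 (-1.22 to -0.37) and -0.60 for Cecr2 (-0.95 to -0.20), both short of 2-fold. Between the library labelled Mll3 and the control, the interval of each gene's ratio held 0 in low-Ig cells. The log2 ratios ran from -0.07 for Arpp21 (-0.38 to 0.27) to 0.47 for Bst1 (-0.27 to 1.42), and 0 of 6 were 2-fold lower beside 2.58% of tested genes. Igkc-rich cells were 26 of the 48 gated cells of the control and 29 of the 207 of the library labelled Mll3. Over all gated cells the same ratios ran from 0.77 for Arpp21 (0.45 to 1.11) to 1.31 for Bst1 (0.57 to 2.25), beside a median of 0.54 over all tested genes. With 14 UMIs each for Chst3 and Bst1 in the control, the low-Ig intervals of these genes reached past 2-fold.

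B-lineage transcription factors and recombination enzymes were mostly higher in the same contrast, whereas other B-lineage lists were mixed. In the gated cells, 7 of 10 tested B-lineage transcription factors were at least 2-fold higher in the library labelled Mll3/4 than in that labelled Mll3, and 1 was lower (5 and 0 in low-Ig cells). Foxo1, which supports Rag gene transcription, was counted at 56.6 and 545 CPM, a log2 ratio of 3.27. Ebf1, a founding factor of the lineage, was at 645 and 1926 CPM (1.58, 1.53 to 1.63). Irf4 was the 1 at least 2-fold lower (-1.95 over all gated cells and -0.12 in low-Ig cells), and Tcf3 was at 160.5 and 103 CPM (-0.65). Rag1 and Rag2, the recombinase pair, were at 95.8 and 402 CPM and at 50.3 and 148 CPM. Dntt, the template-free polymerase of the same reaction, was at 1177 and 1264 CPM (0.10).

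The pre-B receptor list, which supplied the gate genes, had 3 of 8 genes at least 2-fold higher and 2 lower (1 and 1 in low-Ig cells). Cd79a was at 1391 and 3378 CPM and Vpreb1 at 1353 and 3185 CPM in the gated cells of the libraries labelled Mll3 and Mll3/4. Vpreb2, a close copy of Vpreb1 whose reads the counting may have split, was at 186 and 0.654 CPM. Ighm, the heavy chain, had a log2 ratio of -3.87 over all gated cells and 0.21 in low-Ig cells. Of 14 tested genes in the list of further B-progenitor genes, 2 were at least 2-fold higher and 3 lower (2 and 4 in low-Ig cells). Il7r, the receptor of the B-progenitor growth factor IL-7, was at 152 and 1026 CPM. Cd93 and Btk, a surface lectin of early B cells and a kinase of the B-cell receptor, had lower ratios than any of the 6 genes described here: Cd93 was at 131 and 1.64 CPM (-6.30, -6.67 to -5.97), and Btk at 50.9 and 1.48 CPM (-5.10, -5.51 to -4.72).

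**Figure D2:**
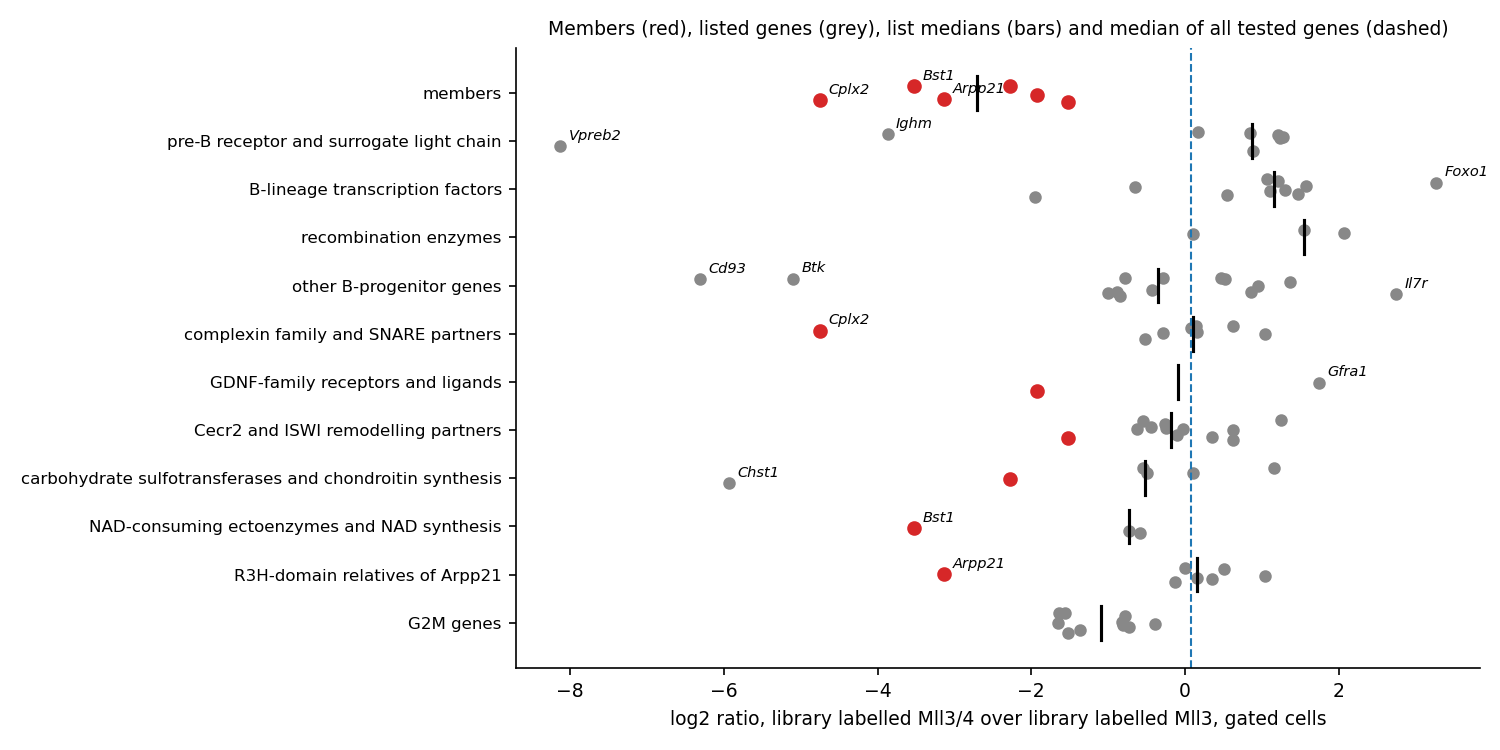
Log2 ratio of gated cells, library labelled Mll3/4 over that labelled Mll3, for tested genes of each list, with the 6 genes in red, list medians as black bars and the median of all tested genes (0.07) dashed. The red points lie between -4.75 and -1.52, left of most points of their own families, and the transcription factor and recombination lists lie mostly to the right of 0.

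Each gene was found in a smaller share of gated cells in the library labelled Mll3/4, a measure that the rule for listing the genes used. After each cell was thinned to 3000 UMIs, Cplx2 was detected in 35.7% of 207 gated cells of the library labelled Mll3 (29.2 to 42.7%) and 1.88% of 4511 gated cells of that labelled Mll3/4 (1.51 to 2.33%). Arpp21 was detected in 32.4% and 3.92%, Gfra2 in 32.9% and 6.67%, and Cecr2 in 29.5% and 9.93%. Bst1 was detected in 12.6% and 0.687% and Chst3 in 7.73% and 1.40%. All 6 intervals were apart, with the smaller share in the library labelled Mll3/4 each time. How many of all genes had intervals apart was not computed, so the count is a description alone. Without thinning the shares were 68.6% and 5.28% for Cplx2, 75.4% and 8.32% for Arpp21, and 36.2% and 4.07% for Chst3. In the 74 ungated cells of the library labelled Mll3 with at least 1% of UMIs in the granule genes Elane, Prtn3 and Mpo (median 26329.5 UMIs), the thinned share was 0 for all 6 genes, with an exact binomial upper bound of 4.86%. Without thinning these cells held 3 UMIs of Cplx2 and 1 of Cecr2. The bound lies above the shares of Cplx2, Arpp21, Bst1 and Chst3 in the library labelled Mll3/4, and below those of Gfra2 and Cecr2. It is thus too wide to set the first 4 apart from background, and it comes from another library. No set of granule-gene cells was at hand in the library labelled Mll3/4, where 15 cells had 0 UMIs of the gate genes, so the background from free RNA in that library was not tested.

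Cells with several of these genes were common in one library and rare in the other, on the contrast for which the genes were listed. Among thinned low-Ig cells of the library labelled Mll3, 16.3% held none of the 6 genes, 28.7% held 1, 28.7% held 2 and 26.4% (20.1 to 33.5%) held 3 or more. In that labelled Mll3/4 the shares were 79.0%, 17.8%, 2.97% and 0.244% (0.122 to 0.436%). The highest Pearson correlation of log-normalised values over the 178 low-Ig cells of the library labelled Mll3 was 0.28, between Cplx2 and Cecr2, and the lowest was -0.12, between Cecr2 and Arpp21. These cells share 1 library and 1 depth, and the correlations are descriptions of sparse counts.

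**Figure D3:**
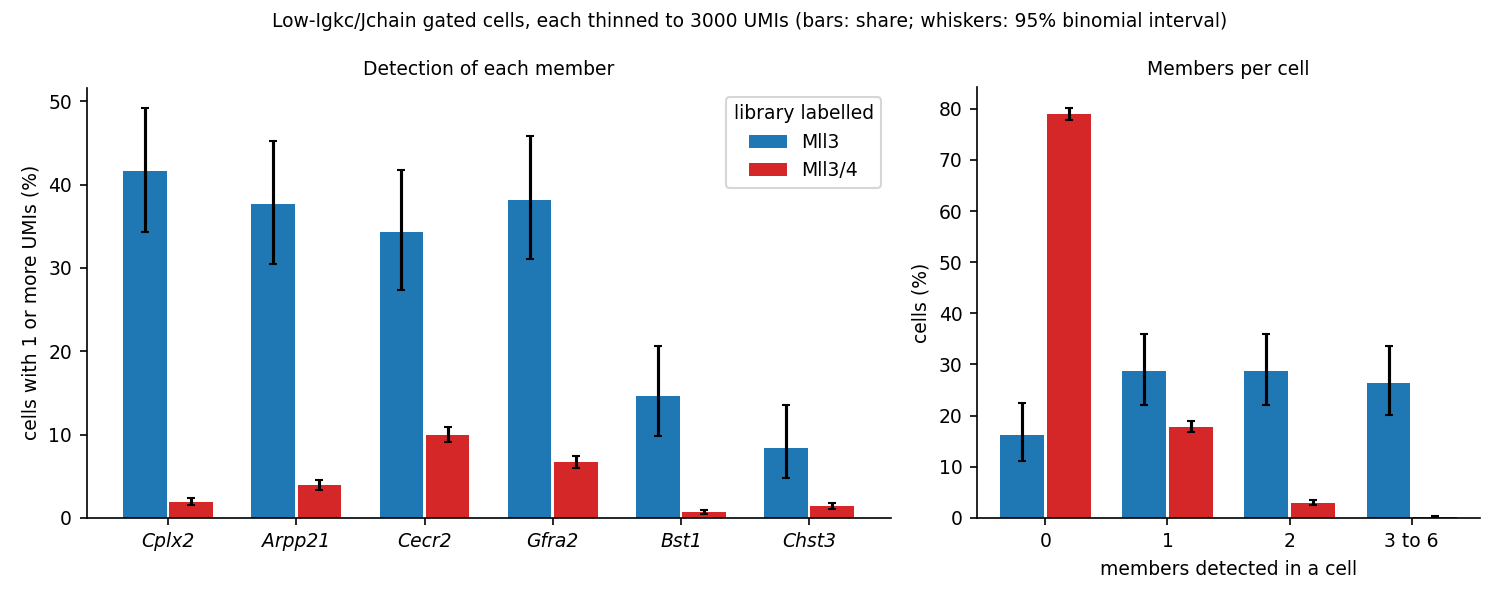
Share of low-Ig cells with at least 1 UMI of each gene (left) and number of the 6 genes found per cell (right) after thinning to 3000 UMIs, with 95% binomial intervals. In the library labelled Mll3/4, 79.0% of cells hold none of the 6 genes, against 16.3% in that labelled Mll3. The genes were listed on this contrast.

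Outside the gate the genes were near 0 in the first 3 libraries, with exceptions for Arpp21, Cplx2 and Bst1. For the library labelled Mll3, 6 of 6 genes were at least 2-fold higher in gated cells than in cells with 0 Cd79a and Vpreb1 UMIs, where 5.37% of 6504 genes were. The low-Ig cells gave 6 of 6 in the control (7.08% of tested genes) and 5 of 5 tested in the library labelled Mll4 (3.73%). This is the property for which the genes were listed. Ungated Chst3 came to 0 UMIs in 6587 control cells and 1 UMI in 5349 cells of the library labelled Mll3. Cecr2 came to 1 and 6 UMIs and Gfra2 to 17 and 9 UMIs in the same cells. Cplx2 was spread thinly over ungated cells, at 2.79 CPM in the control, 5.66 in the library labelled Mll3 and 1.99 in that labelled Mll4.

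Arpp21 was also counted in ungated cells with Dntt, while over all ungated cells Cplx2 was found in a larger share of cells than Arpp21 in the libraries labelled Mll3 (8.24% against 3.57%) and Mll4 (3.97% against 2.34%). In ungated cells with at least 3 UMIs of Dntt, a gene of early lymphoid progenitors, it was at 39.3 CPM in the control (36.0 to 43.0, 657 cells), 104 CPM in the library labelled Mll3 (96.2 to 111, 400 cells) and 25.5 CPM in that labelled Mll4 (21.9 to 29.5, 216 cells). It was found in 32.0%, 43.0% and 27.8% of those cells. The library labelled Mll3 was the highest and that labelled Mll4 the lowest, with no overlap of intervals. The same cells held 0 UMIs of Cecr2 and of Chst3 in all 3 libraries, and Gfra2 had 2 UMIs in the control and 0 in the others. In granule-gene cells Arpp21 was at 0, 0 and 0.232 CPM. The 3 levels of Arpp21 in the Dntt cells all lay above the 16.6 CPM of the gated cells of the library labelled Mll3/4. Bst1 was at 4.46 CPM in the Dntt cells of the library labelled Mll3 (32 UMIs), and in that labelled Mll4 142 of its 150 ungated UMIs lay in cells with neither Dntt nor granule genes.

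**Figure D4:**
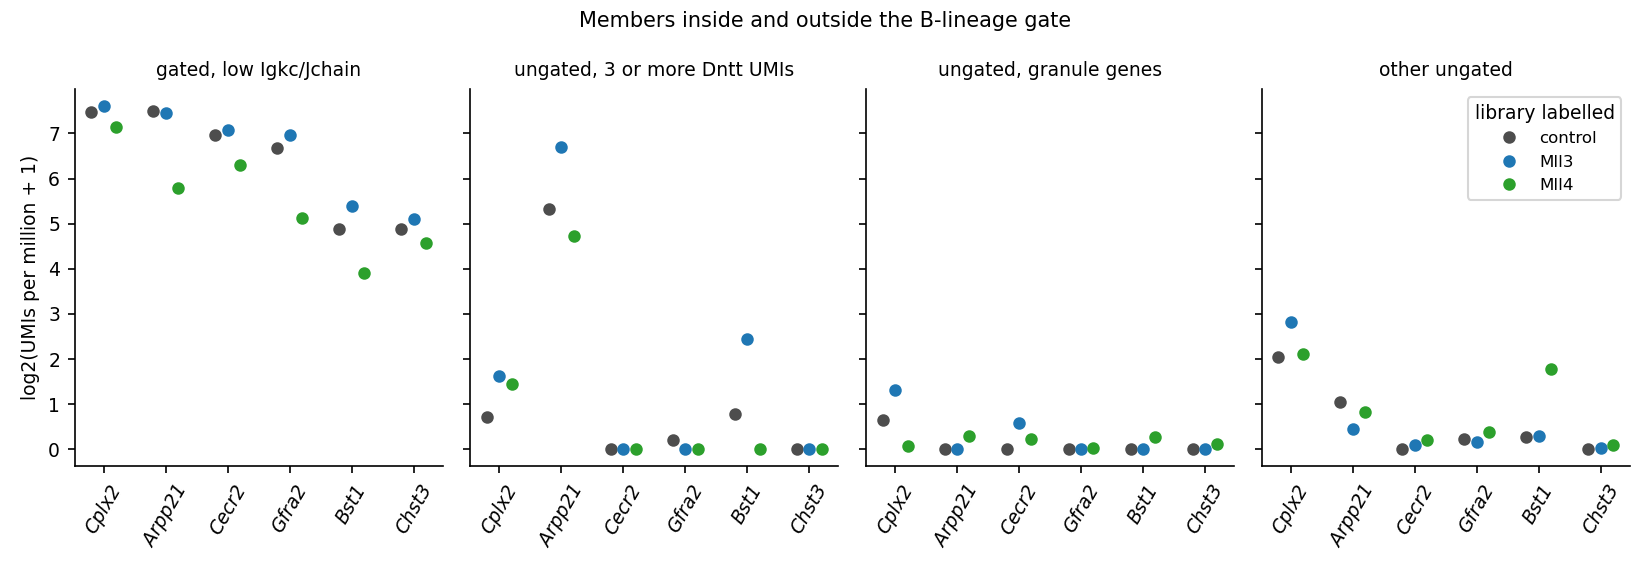
Level of the 6 genes, as log2(CPM + 1), in low-Ig gated cells and in 3 classes of ungated cells of the control and the libraries labelled Mll3 and Mll4, with 1 point per library. Arpp21 is the gene that stands high in ungated Dntt cells, while Cecr2 and Chst3 are at 0 there.

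Levels also moved with the amount of gate transcript, and differently in the 2 libraries. In the library labelled Mll3, Cplx2 was at 5.52 CPM in cells with 1 or 2 gate UMIs, at 0 in the 32 cells with 10 to 29 and at 225 CPM in the 148 cells with 30 or more. Cecr2 was at 0.662, 9.94 and 153 CPM, and Arpp21 at 17.2, 72.0 and 158 CPM. The middle cells were Igkc-rich, with Igkc at 337786 CPM. In the library labelled Mll3/4, Gfra2 and Cecr2 were also higher in cells with 30 or more gate UMIs (27.8 and 39.7 CPM in 4247 cells) than in those with 10 to 29 (13.4 and 29.3 CPM in 279 cells), with overlapping intervals for Cecr2, whereas Arpp21 was lower (16.2 against 26.1 CPM). Igkc was at 22.4 CPM in the upper of these bins and 17528 CPM in the lower. In the lower bin 6.09% of cells held any Igkc UMI, so that level does not describe most of its cells. Over the 12 bins of library and gate UMIs, the genes most like each of the 6 by Pearson correlation of log2(CPM + 1), of 7586 ranked, were Cnot2 (0.871) and Fam53b (0.845) for Cplx2 and Arl5c (0.933) and Bfsp2 (0.926) for Gfra2. They were Chst3 (0.975) and Cd79b (0.965) for Cecr2, and Cecr2 (0.975) and Cd79b (0.929) for Chst3. For Bst1 they were Evl (0.885) and Rsph9 (0.875), and for Arpp21 Tmem134 (0.925). The bins share libraries, and the correlations are descriptions.

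Division differed between the 2 libraries beside these genes. Of the low-Ig cells, 89.3% in the library labelled Mll3 and 21.9% in that labelled Mll3/4 had 3 or more UMIs of 10 G2M genes after thinning. Birc5 and Ccnb1, needed for mitosis, had log2 ratios of -1.66 and -1.63 in all gated cells, and Cenpe and Cenpf, kinetochore genes, -0.73 and -0.39. Among low-Ig cells with 3 or more G2M UMIs in both libraries (159 and 986 cells), the median log2 ratio of the 6 genes was -2.92, on the contrast for which they were listed. The part of division in the difference was not tested. In such cells Cplx2 was at 220.1 CPM in the library labelled Mll3 and 6.76 CPM in that labelled Mll3/4, counted after thinning. Within the library labelled Mll3/4, Gfra2 was higher in cells with 3 or more G2M UMIs than in cells with none (36.8 and 22.1 CPM, log2 ratio 0.74, 0.38 to 1.09), and for the other genes the interval of that ratio held 0. Among low-Ig cells of the library labelled Mll3, Chst3 and Arpp21 were lower with 3 or more G2M UMIs than in the 10 cells with none. The log2 ratios were -2.50 (-3.94 to -0.59) and -1.49 (-2.30 to -0.47), and for the other genes the interval held 0. In the library labelled Mll3/4, Cplx2, Arpp21, Gfra2 and Cecr2 were higher in cells with Dntt than in the 404 cells without. The log2 ratio was 2.59 for Cplx2 (0.65 to 8.48), 1.87 for Arpp21 (0.83 to 3.44), 1.01 for Gfra2 (0.33 to 1.87) and 0.58 for Cecr2 (0.07 to 1.17). The Cplx2 ratio rests on 1 UMI in the cells without Dntt. In the low-Ig cells of the library labelled Mll3, where 14 cells lacked Dntt, the interval of each gene's ratio held 0. How many of all genes were higher with Dntt was not computed. In cells of the library labelled Mll3/4 with Igll1 against those without, the ratio was 1.41 for Gfra2 (0.71 to 2.30), 0.74 for Cecr2 (0.26 to 1.31) and 0.67 for Arpp21, whose interval began at 0.0023.

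The surface antibodies gave a readout that the choice of genes did not use. In the 178 low-Ig cells of the library labelled Mll3, Cplx2 was at 251.3 CPM in the lower tercile of CD34 antibody signal, 239.5 in the middle and 80.3 in the upper tercile. Cecr2 went from 176 to 75.9 CPM and Gfra2 from 144 to 84.1 CPM between the lower and the upper tercile, while Arpp21 was at 179.8 and 183 CPM. CD34 is a protein of early progenitors. Terciles of CD34 in the library labelled Mll3/4 gave Cplx2 at 6.29, 5.90 and 5.98 CPM. Median CD34 counts of the terciles were 25.5, 32 and 88 in the library labelled Mll3 and 8, 12 and 19 in that labelled Mll3/4. The latter thus had no tercile like the upper one of the former, and the splits cannot be compared directly. In the library labelled Mll3/4, Arpp21 was at 22.0, 16.7 and 11.8 CPM from the lower to the upper tercile of CD117. Gfra2 was at 33.9, 29.7 and 19.6 CPM along CD135, the receptor encoded by Flt3, whose terciles had median counts of 23, 29 and 42. The median CD48 antibody count was 3892 in the low-Ig cells of the library labelled Mll3 and 100 in those labelled Mll3/4, a difference whose part in these levels was not tested.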

How the data were processed

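Single-cell RNA and 6 surface antibodies were measured in 4 libraries of LSK cells, 1 for each genotype label. The authors deposited filtered matrices of UMI counts, made with Cell Ranger 6.1.1 on mm10 per the submitters' processing notes. The 6 genes and all gene lists were chosen with earlier results of these data known. Cells with fewer than 1000 genes, or with more than 10% of UMIs mitochondrial, were dropped, and the highest Scrublet doublet scores (scanpy 1.11.5) were removed at 0.8% per 1000 cells, because the caller's own threshold marked 3, 3, 171 and 1 cells in the control and the libraries labelled Mll3, Mll4 and Mll3/4. This left 6851, 5803, 4609 and 4568 cells with 108600794, 96275836, 111781993 and 48049285 UMIs. UMIs were summed over cells with 3 or more Cd79a and Vpreb1 UMIs and divided by the set's total (CPM). Log2 ratios added 0.5 UMIs to each sum, and genes at 20 CPM or more in either set counted as tested. Intervals at 95% were exact (Poisson for sums, Clopper-Pearson for shares, conditional binomial for ratios) and cover counting error only. Shares, correlations and splits by G2M, Dntt, Igll1 or Rag1 used cells thinned to 3000 UMIs. Antibody signals were centred log ratios, divided into terciles within a library. No p-value was computed, since each label has 1 library. Named genes are the 6, the 2 highest and 2 lowest tested ratios of each list, and the 2 genes most like each of the 6; Smarca5, Smarca1, Ret, Nrtn, Cd38, Chst1's low-Ig value and the Cplx1, Cplx3, Cplx4 and Snap25 counts were named after their values were seen. Some genes that the rule selects are not reported here. Ratio code was tested on simulated counts. Alternatives covered the gate, cell filters, doublets, totals, TMM and median-of-ratios scaling (edgeR 4.0.16) and thinning.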

Additional observations from a re-analysis of the deposited data

How the results depend on the processing

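The median log2 ratio of the 6 genes, -2.70 (-2.87 to -2.54) for gated cells of the library labelled Mll3/4 over those labelled Mll3, moved beyond its counting interval under 4 other settings. It was -1.86 with a gate of 1 UMI, -2.96 with the gate applied after thinning, -2.21 with a gate on Ebf1, Pax5, Cd79b and Igll1, and -3.29 in gated cells with no UMI of Igkc, Jchain, Ms4a1, Elane, Mpo or Prtn3. Under 3 further settings chosen after seeing the data it was -2.94 (low-Ig cells), -2.93 (cells with 1 or more Ebf1 UMIs) and -2.92 (low-Ig cells with 3 or more G2M UMIs). The cause was not tested. No ratio changed sign under any alternative run. Cecr2 fell short of 2-fold with the gate of 1 UMI (-0.61) and with the gate on Ebf1, Pax5, Cd79b and Igll1 (-0.91), which leaves 5 genes at least 2-fold lower there. Over 16 alternatives Cplx2 ran from -5.33 to -3.87 and Gfra2 from -2.33 to -1.01. With no minimum level, 20.6% of 18705 genes were at least 2-fold lower and 20.5% higher. No paired analysis was possible because each genotype label has 1 library and no replicate number. The number of cells limits the values of the 22 low-Ig cells of the control and the 21 of the library labelled Mll4, and depth those of the library labelled Mll3/4.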
